A study of Mus musculus with 10 samples.

Results

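Collagen genes, taken here as the protein-coding genes named on the pattern Col1a1, Col4a2 and so on, were 42 of the 26401 genes in the count table. Of these, 11 encode fibrillar chains, 8 encode basement membrane chains and 23 belong to other classes. The libraries hold poly(A)-selected RNA from cultures of immortalized mouse embryonic fibroblasts, labelled as C57Bl/6N, and no cells received a treatment. All populations carry the mutation that the labels write as m.5024C>T, in the mitochondrial gene for alanine tRNA, on only some of their mitochondrial genomes, a state called heteroplasmy. The high group is 5 populations labelled as high heteroplasmy and the low group is 5 labelled as low. Every population has its own clone number, was grown in high-glucose medium with 10% serum and 50 µg/ml uridine, and gave 1 library. There is no population without the mutation among the groups, and for the mutant share of single clones no value was found in the labels. The labels call the populations of a group biological replicates, so the spread within a group is a spread between clones.

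Library totals ran from 17318372 to 28208576 counts. After the filter on low counts 12964 genes were tested, of which 258 rose and 372 fell in the high group. This is 4.86% of the genes tested. Of the 10 fibroblast markers listed, all were in the table, and their summed level was 5973 to 7383 CPM (reads of the gene per 1e6 counts, TMM-scaled) in the low clones and 4519 to 13130 CPM in the high clones, most of it Vim. Thy1 and Pdgfra, which are surface markers of fibroblasts, were low in most clones. Thy1 had 0 to 0.326 CPM in the low clones and 56.8, 11.3, 3.25, 0 and 0.399 CPM in high 1 to high 5. Pdgfra had 2.12 to 9.29 CPM in the low clones and 4.67, 50.9, 1.29, 7.44 and 0.266 CPM in the high clones (adjusted p = 0.453). Other listed markers were higher. Fbln2 averaged 244 CPM in the low and 402 CPM in the high clones, Prrx1 166 and 150, Pdpn 80.1 and 76.6, and Twist2 42.0 and 55.0. Pdgfrb averaged 15.1 and 35.0 CPM and S100a4 5.93 and 8.92 CPM, while Fap had 20 counts over all libraries. The macrophage markers summed to 25.4 to 41.1 CPM in the low and 21.1 to 94.8 CPM in the high clones, most of it Cd68 and Cd14, with Ptprc at 0. The Schwann and neural crest markers summed to 30.9 to 60.9 CPM and 13.8 to 51.5 CPM, most of it Erbb3, with Sox10 and Cdh19 at 0. The summed markers of endothelium reached at most 2.22 CPM and those of skeletal muscle at most 0.119 CPM. Gm42418, a gene model known to pick up reads of ribosomal RNA, reached 40940 CPM in low 2 and 8017 CPM in low 3, against 745 to 1616 CPM in the other libraries. The adipocyte markers summed to 22 to 37.5 CPM in the low and 90.9 to 287 CPM in the high clones. Of the 8 listed 3 were tested, Plin4, Pparg and Fabp4, and all 3 rose in edgeR. Fabp4 did not pass in limma-voom (adjusted p = 0.068). The others had little RNA: Adipoq, Plin1, Cebpa and Cidec had 1, 2, 17 and 18 counts over all libraries. Lpl had 9.29 CPM in high 2, 3.02 CPM in high 4 and 0 elsewhere. The part of these shifts in the collagen values was not tested.

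Collagens are the main structural proteins outside the cell, and each molecule is a triple helix of alpha chains that are encoded by separate genes. Fibrillar collagens pack into the fibres that fibroblasts lay down in connective tissue. Network collagens such as type IV form the sheet of the basement membrane, and fibril-associated and beaded collagens link fibres to each other and to cells. Most chains are of use to the cell only together with their partner chains, so the levels of partners are given side by side.

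The promoters of the 4 tested collagen genes that varied most over the 10 clones on the log2 scale are shown first. The bases are those before the RefSeq start on GRCm38.p6, read 5′ to 3′ on the strand of the gene. Capitals mark TATAAA, which is the core of a TATA box, and GGGCGG, which is a GC box that Sp1-type factors can bind. CCAAT, a further promoter motif, was searched as well, and all 3 were searched on both strands. Of the Col1a2 window only the stretch that no annotated exon covers is printed, from 248 to 126 bases before the start. That start lies 804 bases inside the GENCODE gene.

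Col1a2 (chr6:4505370-4505492, + strand): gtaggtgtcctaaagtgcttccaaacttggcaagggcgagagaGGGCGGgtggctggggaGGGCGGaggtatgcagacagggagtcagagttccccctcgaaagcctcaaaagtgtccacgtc
Col3a1 (chr1:45311288-45311537, + strand): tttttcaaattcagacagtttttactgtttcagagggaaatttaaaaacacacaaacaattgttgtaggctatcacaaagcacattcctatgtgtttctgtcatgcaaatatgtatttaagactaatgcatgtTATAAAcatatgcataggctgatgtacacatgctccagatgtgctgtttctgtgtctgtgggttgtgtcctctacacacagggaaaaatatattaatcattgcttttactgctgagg
Col6a3 (chr1:90843972-90844221, - strand): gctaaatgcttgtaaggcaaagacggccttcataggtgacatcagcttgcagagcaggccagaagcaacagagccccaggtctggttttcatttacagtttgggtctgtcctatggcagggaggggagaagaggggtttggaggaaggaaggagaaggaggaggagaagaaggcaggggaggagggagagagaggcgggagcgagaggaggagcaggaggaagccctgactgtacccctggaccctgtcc
Col10a1 (chr10:34389731-34389980, + strand): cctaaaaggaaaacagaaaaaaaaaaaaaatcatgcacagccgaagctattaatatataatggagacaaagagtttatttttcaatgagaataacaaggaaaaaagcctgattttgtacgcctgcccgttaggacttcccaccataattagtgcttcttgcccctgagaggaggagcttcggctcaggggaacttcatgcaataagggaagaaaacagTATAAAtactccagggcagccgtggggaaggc

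The Col10a1 window holds TATAAA 32 bases before the start. Col3a1 holds it at 117 bases, and has 0 CpG sites in its 250 bases. Col1a2 holds GC boxes at 205 and 188 bases, and a CCAAT nearer the start, outside the printed stretch. The Col6a3 window holds none of the 3 motifs and 3 CpG sites. Over the 32851 promoter windows of 250 bases in the RefSeq table, 12.4% hold TATAAA, 33.8% hold CCAAT and 32.7% hold GGGCGG, with a median of 6 CpG sites. Of the 42 collagen genes 33 have a window there, of which 15.2% hold TATAAA, 36.4% hold CCAAT and 57.6% hold GGGCGG, with a median of 10 CpG sites. A match is only a run of letters and was not tested as a site.

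Collagen RNA made up 0.835 ± 0.184% of all counts in the low clones (SD, n = 5, 0.553 to 0.987%) and 0.970 ± 0.223% in the high clones (SD, n = 5, 0.688 to 1.27%). The groups overlapped, and the difference of 0.135 percentage points was smaller than either SD. Fibrillar chains held 67.7 to 78.8% of the collagen counts in every clone. Col1a1 by itself held 51.2 to 64.7% of them. The basement membrane share of collagen counts was 16 ± 2.61% in the low and 11.6 ± 6.04% in the high clones, and the share of the other classes was 8.90 ± 2.01% and 13.4 ± 5.21%. These are bulk libraries, so fewer cells that express a gene and less of its RNA per cell cannot be told apart.

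**Figure D1:**
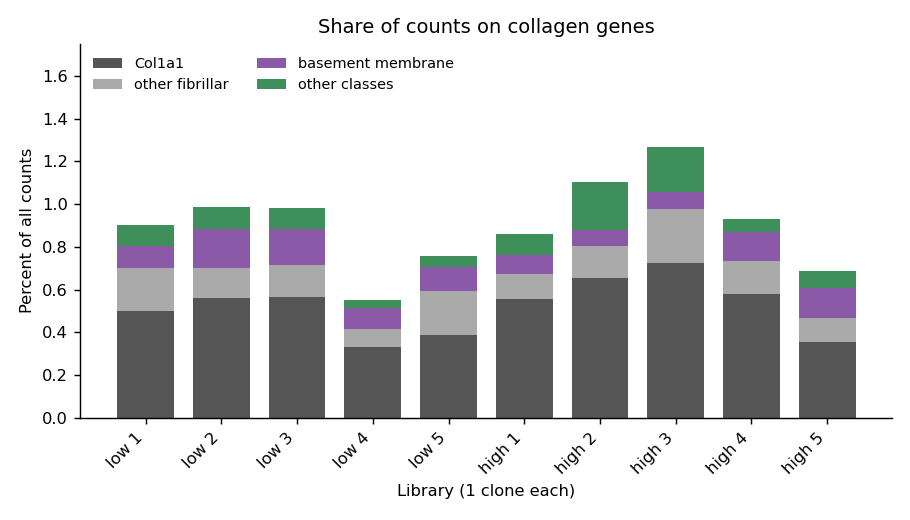
Percent of all counts on collagen genes in each of the 10 libraries (1 clone each), stacked as Col1a1, other fibrillar chains, basement membrane chains and other classes. Col1a1 is the largest layer in every clone, and the whole stack runs from 0.553% in low 4 to 1.27% in high 3.

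Of the 42 members 22 passed the filter and 20 did not. Per kilobase of the longest annotated transcript, Col1a1 led with a mean of 879 CPM per kb over the 10 libraries. Col5a2 and Col6a1 followed with 122 CPM per kb each, then Col4a1 (90.4), Col1a2 (61.8), Col4a2 (58.8), Col6a2 (57.1), Col5a1 (34.5), Col16a1 (24.0) and Col4a5 (21.9). Below the first place, each of these members differed from the next by less than the larger of their SDs over the 10 clones. The other 12 tested members had 0.145 to 16.8 CPM per kb.

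Among the tested members 12 were higher and 10 were lower in the high group, and 1 passed the test: Col10a1. That is 4.55% of the members tested, beside 4.86% of all genes tested, and 1.99% of all genes were called as higher. In 5 members (Col3a1, Col4a5, Col5a1, Col11a2 and Col18a1) the sign of the difference turned when 1 library was left out. The members passed a filter that keeps a gene on the strength of either group, so these shares describe the expressed members only. DESeq2 called 4 members (Col10a1, Col6a3 and Col12a1 as higher, Col7a1 as lower), which is 18.2% of the members beside 11.4% of all genes. At an unadjusted p under 0.05, 8 members differed, 4 in each direction, or 36.4% beside 21.6%. In 1 member, again Col10a1, the 5 low and the 5 high clones did not overlap, or 4.55% beside 7.17% of all genes. The median log2 fold change, high over low, was 0.20 over the members and 0.02 over all genes tested, and by class it was -0.09 for the fibrillar, -0.24 for the basement membrane and 0.90 for the other collagens.

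The levels of the members were spread widely over the clones. The SD of the log2 level over the 10 libraries was above 1 in 11 of the 22 tested members (50.0%), beside 8.36% of all genes tested. Its median was 0.99 over the members and 0.38 over all genes. No cause of this spread was tested.

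**Figure D2:**
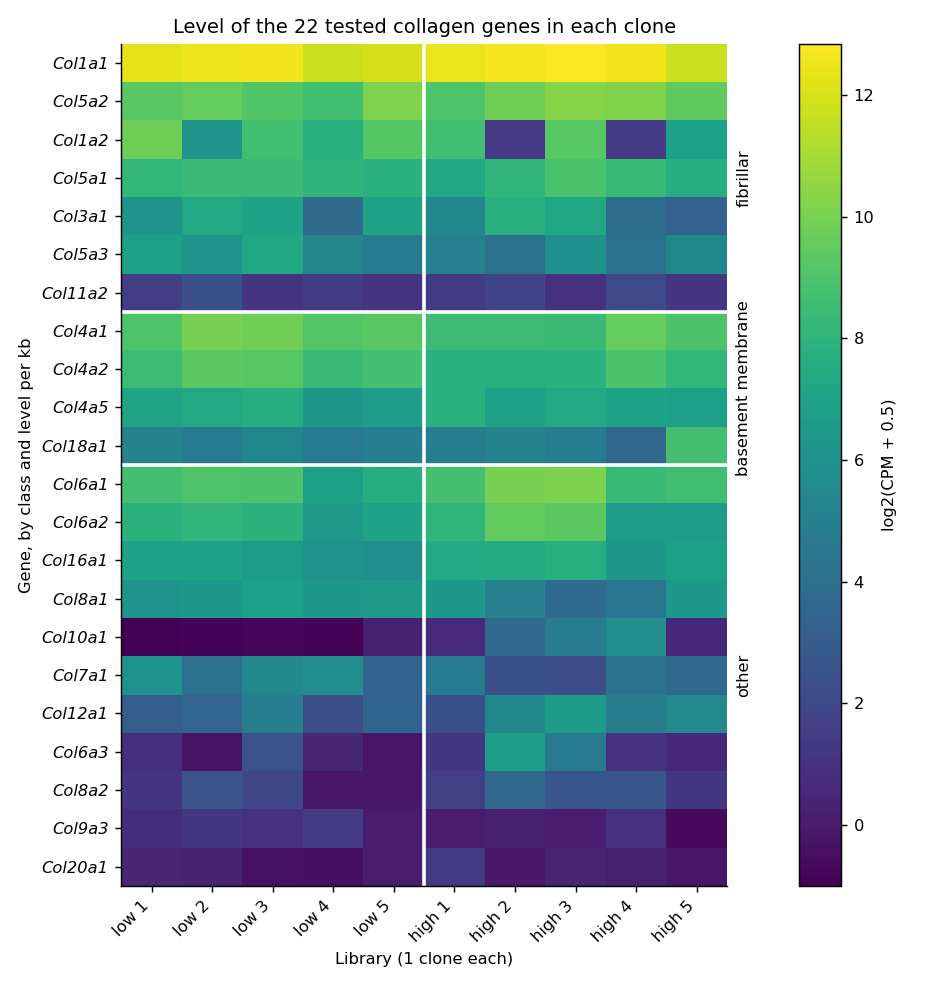
Level of the 22 tested collagen genes as log2(CPM + 0.5), with libraries as columns (5 low, then 5 high) and genes as rows, sorted within the fibrillar, basement membrane and other classes by level per kilobase. Col1a1 keeps the same colour across the top row, while Col1a2 is dark in high 2 and high 4, Col18a1 is bright in high 5 alone and Col6a3 stands out in high 2 and high 3.

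Type I collagen, the main fibre protein of skin, bone and tendon, is normally built of a pair of Col1a1 chains and a single Col1a2 chain. Col1a1 stayed within a narrow range over the clones, while Col1a2 did not. Col1a1 (chr11:94936224-94953042, GRCm38, + strand) had 4912, 5713, 5863, 3435 and 3984 CPM in low 1 to low 5 and 5449, 6204, 7321, 5908 and 3310 CPM in high 1 to high 5. Its highest clone was 2.21-fold above its lowest, and the groups overlapped (log2 fold change 0.24, SE 0.23, adjusted p = 0.605). Col1a2 (chr6:4504814-4541544, + strand) had 886, 72.9, 404, 218 and 582 CPM in the low clones and 404, 1.98, 614, 2.15 and 119 CPM in the high clones. High 2 and high 4 gave only 46 and 54 counts of this gene, while the other high clones gave 3577 to 16219. The highest clone was 448-fold above the lowest over all clones, 310-fold within the high group and 12.2-fold within the low group. The group difference was small beside this (log2 fold change -0.92, SE 1.24, adjusted p = 0.731), and its SD put Col1a2 at the 99.9th percentile of all genes tested. Its size depended on the fit, from -1.72 without high 3 to -0.49 without low 1, and -2.94 in limma-voom (adjusted p = 0.306), and no fit called it.

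Per base of transcript, Col1a1 was 5.00 to 70.7 times as abundant as Col1a2 in the low clones. In the high clones the ratio was 12.2, 2830, 10.8, 2480 and 25.1 for high 1 to high 5. High 2 and high 4 thus stand far from all other clones, and the remaining 3 high clones lie within the range of the low ones. As a log2 ratio the means were 3.73 ± 1.5 in the low and 6.88 ± 4.12 in the high group (SD, n = 5). Of the 5 tested neighbours of Col1a2 within 500 kb, Casd1 had 32.0 CPM in high 2 and 15.1 CPM in high 4 beside 12.7 to 31.6 CPM in the other libraries. Peg10 had 1062 CPM in high 2, the highest of the 10 clones, and 38.0 CPM in high 4, the lowest. Sgce had 38.0 and 19.1 CPM there beside 28.4 to 73.4 CPM elsewhere. Bet1 had 39.6 and 28.2 CPM beside 23.4 to 55.9 CPM, and Ppp1r9a, low in all clones, had 1.08 and 0.915 CPM beside 0.109 to 3.36 CPM.

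**Figure D3:**
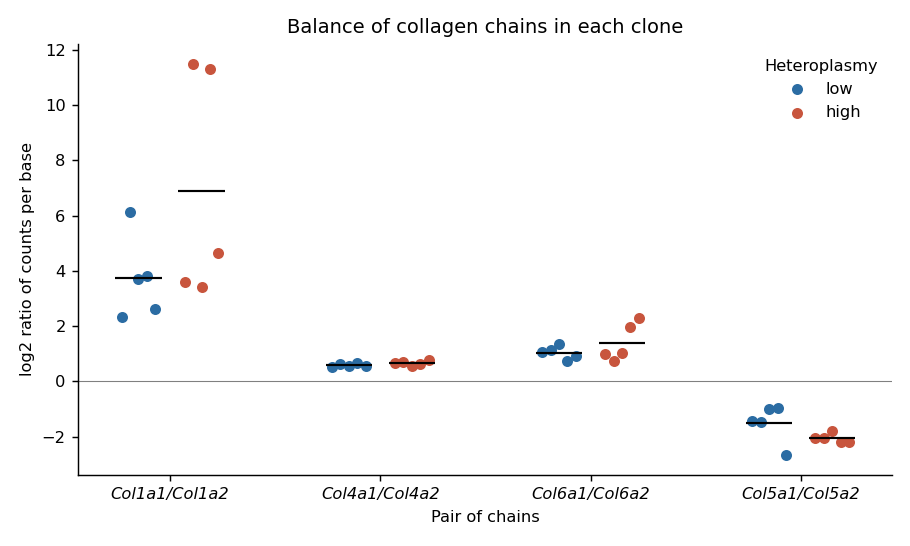
Log2 ratio of counts per base between partner chains in each clone, blue for the low and red for the high group, with a line at each group's mean. Col4a1/Col4a2 lies in a narrow band in all 10 clones (ratio 1.42 to 1.73), while Col1a1/Col1a2 spreads from 5.00 to 2830, with high 2 and high 4 at the top.

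Type III collagen, a homotrimer of Col3a1 found with type I in soft tissue, varied widely within both groups. Col3a1 (chr1:45311538-45349706, + strand) had 71.3, 165, 125, 13.2 and 125 CPM in the low clones and 41.6, 219, 153, 14.9 and 9.62 CPM in the high clones. Low 4, high 4 and high 5 were the clones with the least of it, the highest was 22.8-fold above the lowest, and the group difference was -0.19 on the log2 scale (SE 0.85, adjusted p = 0.933). Its neighbour Col5a2, 24615 bases away on the other strand, had 395, 1186 and 700 CPM in those 3 clones.

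Type V collagen controls the width of type I fibres. Col5a2 (chr1:45374321-45503282, - strand) had 619, 765, 549, 395 and 1162 CPM in the low clones and 512, 911, 1277, 1186 and 700 CPM in the high clones (log2 fold change 0.39, SE 0.31, adjusted p = 0.512). Col5a1 had 289, 351, 346, 256 and 232 CPM and 156, 279, 474, 328 and 193 CPM, and the groups overlapped (log2 fold change -0.04, SE 0.27, adjusted p = 0.953). Per base, Col5a1 was 0.157 to 0.511 times as abundant as Col5a2. Col5a3, a further chain of the type, ran from 26.1 to 156 CPM in the low and from 16.2 to 61.7 CPM in the high clones. It was among the members lower at an unadjusted p under 0.05 and did not pass after adjustment (log2 fold change -1.27, SE 0.52, adjusted p = 0.183).

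The cartilage-type fibrillar chains had little RNA. Col11a2 passed the filter with 1.44 to 4.62 CPM over the 10 clones, or 30 to 93 counts per library. Col11a1 did not pass, and its 160 counts came mostly from 3 clones, with 110 in high 1, 31 in low 4 and 17 in low 5. The other 7 libraries had 0 or 1 count. Col2a1, the main cartilage collagen, had 84 counts in all, between 1 and 27 in each library. Col27a1 had 24 counts and Col24a1 had 2.

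The basement membrane chains Col4a1 and Col4a2, which form the common type IV trimer, kept a nearly fixed ratio in all clones. Both lie on chromosome 8, head to head, and their first exons share 22 bases on opposite strands. Col4a1 (chr8:11198423-11312826, - strand) had 524, 1030, 905, 551 and 630 CPM in the low clones and 360, 362, 346, 758 and 511 CPM in the high clones. Col4a2 (chr8:11312805-11449287, + strand) had 360, 645, 597, 341 and 416 CPM in the low clones and 223, 216, 227, 476 and 288 CPM in the high clones. In both genes 4 of 5 high clones lay below every low clone, and high 4 lay among the low ones. The per-base ratio of Col4a1 to Col4a2 was 1.42 to 1.73 in all 10 clones, with an SD of 0.08 on the log2 scale.

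Neither gene passed the test with all libraries (Col4a1 log2 fold change -0.64, SE 0.27, adjusted p = 0.197, and Col4a2 -0.72, SE 0.27, adjusted p = 0.141). Without high 4, Col4a2 passed (log2 fold change -0.98, adjusted p = 0.0336), and without low 2 and low 3, the libraries rich in Gm42418, it was -0.36 (adjusted p = 0.570). Genes of chromosome 8 lay lower as a whole in the high clones, by 0.57 on the log2 scale in the median of 548 genes, and all 8 other tested neighbours within 500 kb had negative fold changes. Cars2 and Naxd fell (log2 fold changes -1.12 and -0.71, adjusted p = 0.00661 and 0.0281), while Rab20 (-0.72) and Ing1 (-0.65) did not pass. With an offset for each library and chromosome, the log2 fold change was -0.06 for Col4a1 and -0.15 for Col4a2, and a shift of the chromosome and a change of these genes alone cannot be told apart by that offset.

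Col4a5, the chain of the type IV network in kidney and elsewhere, had 136, 166, 198, 81.1 and 96.1 CPM in the low clones and 224, 121, 171, 125 and 113 CPM in the high clones. The groups overlapped (log2 fold change 0.16, SE 0.27, adjusted p = 0.797). Its partner chains in that network, Col4a3 and Col4a4, had 1 count each over all libraries, and Col4a6, its neighbour on the X chromosome, had 24. Col15a1 had 3.

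Col18a1, whose cleaved end is endostatin, had 35.4, 26.5, 40.7, 25.4 and 30.8 CPM in the low clones and 28.4, 36.4, 28.2, 11.6 and 425 CPM in the high clones. High 5 was by itself, while 3 of the other high clones lay within the low range and high 4 lay below it. The log2 fold change of 1.74 (SE 0.87, adjusted p = 0.276) rested on that clone, and without it the value was -0.29. DESeq2 gave no adjusted p for this gene. Its neighbour Slc19a1 had 36.6 CPM in high 5 beside 7.35 to 28.4 CPM in the other clones, and Pcbp3 had 69.0 CPM beside 29.4 to 64.2 CPM. Pofut2, Fam207a, Pttg1ip and Sumo3 also had their highest value in high 5 (173, 112, 447 and 305 CPM). The other tested neighbours within 500 kb did not. Genes of chromosome 10 lay higher in high 5, by 0.42 on the log2 scale in the median of 475 genes. With the offset per chromosome the log2 fold change of Col18a1 was 1.29 (adjusted p = 0.446). The part of that shift in the Col18a1 values was not tested.

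Type VI collagen forms beaded filaments around fibroblasts from Col6a1, Col6a2 and 1 more chain, often Col6a3. Col6a1 (chr10:76708792-76726168, - strand) had 415, 519, 500, 118 and 195 CPM in the low clones and 431, 1008, 1096, 326 and 390 CPM in the high clones. Col6a2 had 241, 279, 237, 84.6 and 123 CPM in the low clones and 262, 732, 652, 100 and 96.3 CPM in the high clones. For both, high 2 and high 3 lay above every other clone, and the remaining 3 high clones lay within the low range. The log2 fold changes were 0.90 (SE 0.48, adjusted p = 0.305) and 0.93 (SE 0.59, adjusted p = 0.401). Both genes lie on chromosome 10, whose genes lay higher in the high clones, by 0.28 on the log2 scale in the median of 475 genes. With the offset per chromosome the values were 0.68 and 0.76 (adjusted p = 0.531 and 0.582). A shift of the chromosome and a change of these genes alone cannot be told apart by that offset.

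Col6a3 was low in most clones and high in the same pair. It had 1.42, 0.326, 5.30, 0.879 and 0.381 CPM in the low clones and 1.88, 105, 24.9, 1.47 and 0.998 CPM in the high clones. The log2 fold change was 4.01 (SE 1.40) and missed the threshold in edgeR (adjusted p = 0.125), while it passed in DESeq2 (adjusted p = 0.0207). It was 2.13 without high 2, 5.15 without low 3 and 2.52 in limma-voom (adjusted p = 0.339, 0.118 and 0.368). Per base, Col6a3 was 0.0424 times as abundant as Col6a1 in high 2 and 0.00923 times in high 3, and 0.000255 to 0.00430 times elsewhere. This chain was thus far below the other partners in every clone. Col6a4 had 0 counts in all 10 libraries, and Col6a5 and Col6a6 were not analysed here.

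Col10a1, which forms a hexagonal network around hypertrophic chondrocytes of the growth plate, was the 1 collagen gene that passed the test. It had 0, 0.0543, 0.0938, 0.0418 and 0.653 CPM in the low clones, or 0, 1, 2, 1 and 12 counts. In the high clones it had 1.12, 12.6, 28, 55.9 and 1.03 CPM, or 22, 294, 740, 1405 and 31 counts. Each high clone lay above each low clone, although high 1 and high 5 lay near low 5. The log2 fold change was 6.86 (SE 1.39, adjusted p = 0.0252), and since the gene passed the filter only through the high group, its being tested at all already rests on that difference. The call was kept in 5 of 10 fits that left out 1 library (log2 fold change 5.97 to 8.50, adjusted p = 0.0177 to 0.0631), and it was lost without low 1 (0.0580), low 2 (0.0631), low 3 (0.0620), low 4 (0.0596) or high 3 (0.0517). Without low 2 and low 3 together the log2 fold change was 6.43 (adjusted p = 0.143). The call was also lost in limma-voom (adjusted p = 0.0688) and without the filter on low counts (0.0598). Col10a1 lies on chromosome 10 as well, and with the offset per chromosome the log2 fold change was 6.56 (adjusted p = 0.0473).

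Exons of Col10a1 share 18 bases with Nt5dc1 on the other strand, and the labels do not say whether the counting used strand, so reads in those bases are uncertain. Nt5dc1 had 8.09 to 14.4 CPM in the low and 13.8 to 31.9 CPM in the high clones (log2 fold change 0.83, adjusted p = 0.0785), and its order over the high clones differed from that of Col10a1, with the highest value in high 5. Among markers of hypertrophic chondrocytes, Ihh averaged 0.346 CPM in the low and 0.223 CPM in the high clones, and Alpl and Mmp13 had 12 and 8 counts over all libraries. The summed level of this list was 319 to 848 CPM in the low and 77.5 to 773 CPM in the high clones, most of it Spp1, and of the 6 tested 0 passed in edgeR, DESeq2 or limma-voom. At an unadjusted p under 0.05, 1 differed in edgeR, Runx3. It averaged 37.3 CPM in the low and 24.5 CPM in the high clones (log2 fold change -0.61, adjusted p = 0.169). Runx2 averaged 33.3 CPM in the low and 33.7 CPM in the high clones, and Mef2c 11.6 and 2.79 CPM. The chondrocyte markers summed to 8.55 to 27.3 CPM in the low and 5.39 to 19.0 CPM in the high clones. Of its 3 tested members 0 passed in edgeR, 0 in limma-voom and 1 in DESeq2. That gene was Sox9 (14.1 and 3.17 CPM, log2 fold change -2.16, adjusted p = 0.0607 in edgeR). Matn3 was higher, at 2.24 and 5.50 CPM (log2 fold change 1.3, adjusted p = 0.193), and Acan had 14 counts over all libraries.

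The other short-chain collagen is type VIII, found in the lining of vessels and of the cornea. Col8a1 had 70.9, 81.6, 114, 81.4 and 89.4 CPM in the low clones and 82.3, 31.8, 13.8, 20.8 and 82.9 CPM in the high clones. High 2, high 3 and high 4, the clones with the most Col10a1, were the only ones below the low range. Its log2 fold change was -0.92 (SE 0.46, adjusted p = 0.275). Col8a2 ran from 0.418 to 5.65 CPM in the low and from 1.90 to 11.5 CPM in the high clones (log2 fold change 1.26, SE 0.74, adjusted p = 0.358).

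Fibril-associated collagens sit on the surface of fibres. Col12a1, which is made in tendon and in loaded tissue, had 8.72, 10.8, 29.3, 4.56 and 10.3 CPM in the low clones and 4.73, 42.9, 92.5, 27.1 and 45 CPM in the high clones. High 1 was as low as the low clones, and 3 of the other high clones lay above all low ones (log2 fold change 1.74, SE 0.67, adjusted p = 0.160 in edgeR and 0.0341 in DESeq2). Col16a1 had 132, 128, 95.7, 66.9 and 59.4 CPM in the low clones and 176, 185, 210, 81.2 and 117 CPM in the high clones (log2 fold change 0.67, SE 0.30, adjusted p = 0.212). Here too 3 of 5 high clones lay above the low range. Col9a3 had 0.133 to 2.22 CPM (log2 fold change -1.13, adjusted p = 0.260). Col20a1 had 0.251 to 2.03 CPM, and it shares 79 bases on the same strand with an annotated overlapping transcript, so its value is uncertain.

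Col7a1, which forms the anchoring fibrils that tie the epidermis to the dermis, had the most negative fold change of the tested members. It had 66.5, 17, 41.5, 54.1 and 10.0 CPM in the low clones and 24.6, 4.77, 4.35, 18.2 and 12.7 CPM in the high clones. High 2 and high 3 lay below all low clones and the other 3 lay within their range. The log2 fold change was -1.55 (SE 0.60), with an adjusted p of 0.164 in edgeR and 0.0437 in DESeq2.

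**Figure D4:**
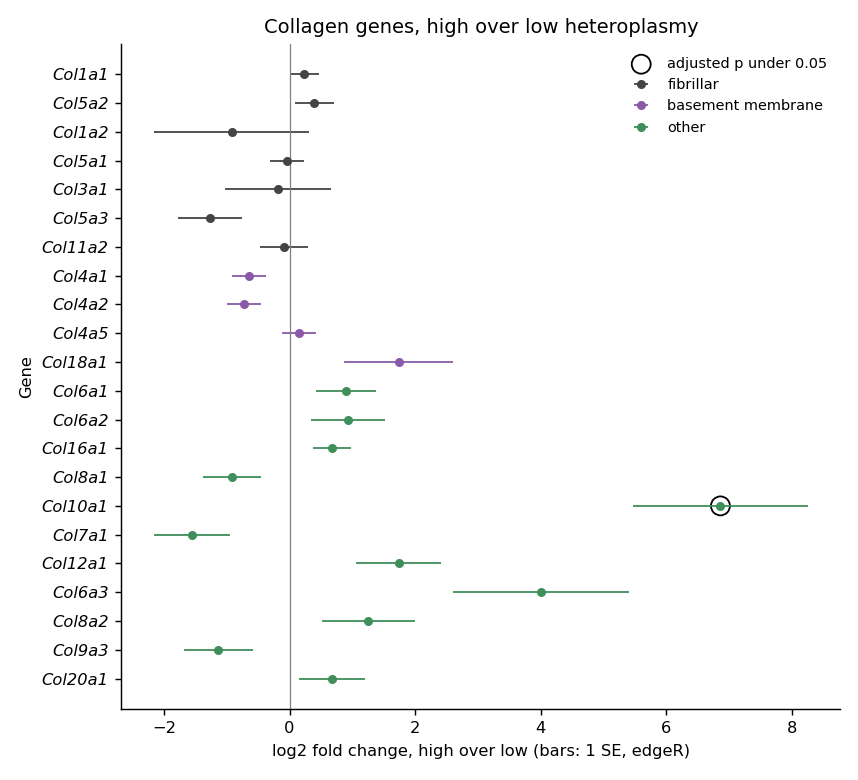
Log2 fold change, high over low, of the 22 tested collagen genes with bars of 1 SE (edgeR), coloured by class, with a ring around genes with an adjusted p under 0.05. Col10a1 (6.86) carries the only ring, and the widest bars belong to Col6a3, Col10a1 and Col1a2.

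The 20 members that were not tested hold little RNA. Of these, 3 had 0 counts in all libraries (Col6a4, Col9a1 and Col19a1), which at this depth still allows up to 3 counts each. A further 8 had 1 to 3 counts over all libraries, and 9 had 4 or more. The transmembrane collagens Col13a1, Col17a1, Col23a1 and Col25a1 had 1, 56, 19 and 2 counts. The fibril-associated Col9a2, Col14a1 and Col22a1 had 9, 17 and 1, and Col26a1 and Col28a1 had 1 and 10. Of the 56 counts of Col17a1, a hemidesmosome collagen of epithelium, 23 came from low 3.

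Proteins that modify, carry, cut, crosslink and bind collagen were followed as lists. For each list the share of all tested genes called in edgeR is 4.86% (1.99% as higher), and 21.6% had an unadjusted p under 0.05. DESeq2 called 11.4% of all tested genes, and limma-voom called 687 of the 12964. Of 17 tested genes that modify prolines and lysines of new chains, 1 rose and 0 fell, with a median log2 fold change of 0.12 beside 0.02 over all genes. The 1 that rose was P3h3, a member of the prolyl 3-hydroxylase family, at 18.8 ± 4.12 CPM in the low and 38.1 ± 9.0 CPM in the high clones (SD, n = 5, log2 fold change 1.02, adjusted p = 0.0252). It was called in 6 of 10 fits that left out 1 library, and with the offset per chromosome it did not pass (0.70, adjusted p = 0.0807). Colgalt1, which adds galactose to hydroxylysine, was next (log2 fold change -0.64, adjusted p = 0.0588), and it lies on chromosome 8, where the offset took the value to -0.04. DESeq2 called 2 genes of this list, P3h3 and Colgalt1 (adjusted p = 0.00037 and 0.0142), and limma-voom called 1, P3h3 (0.0255). In both genes the low and high clones did not overlap. Of 11 chaperone and export genes 0 passed in edgeR, DESeq2 or limma-voom, with a median of 0.05 and 2 at an unadjusted p under 0.05, a share below that of all genes. These were Serpinh1, the collagen chaperone, at 1992 ± 346 CPM and 1306 ± 452 CPM (log2 fold change -0.61, adjusted p = 0.196), and Creb3l1 (-1.06, adjusted p = 0.207). Of 5 propeptide-cleaving genes 0 passed in edgeR, 1 in DESeq2 and 0 in limma-voom, with a median of -0.44 and 2 at an unadjusted p under 0.05. These were Bmp1, the procollagen C-proteinase (-0.66, adjusted p = 0.0607), and its enhancer Pcolce (-0.44, adjusted p = 0.185).

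The lysyl oxidase family, which crosslinks collagen and elastin, held calls in both directions. Of 6 tested genes on the crosslinking list 1 rose and 1 fell (beside 4.86% of all genes called), with a median log2 fold change of 0.08. In edgeR 4 had an unadjusted p under 0.05, beside 21.6% of all genes. DESeq2 called 4 of the 6, beside 11.4% of all genes, and limma-voom called 3. Loxl2 fell from 297 ± 120 CPM to 74.3 ± 32.3 CPM (SD, n = 5, log2 fold change -2.0, SE 0.37, adjusted p = 0.0174). Loxl3 rose from 34.3 ± 8.23 CPM to 70.3 ± 13.9 CPM (log2 fold change 1.04, SE 0.20, adjusted p = 0.0183). In both, every low clone lay apart from every high clone, and both were called in 10 of 10 fits that left out 1 library. With an offset per chromosome both kept their sign and neither passed (-1.62, adjusted p = 0.0807, and 0.76, adjusted p = 0.105). Lox itself had 65.0 to 141 CPM in the low clones and 108, 1058, 465, 442 and 164 CPM in the high clones. It did not pass in edgeR (log2 fold change 2.02, adjusted p = 0.0575) and passed in DESeq2 (0.000784), and high 1 lay within the low range. Loxl1 had 226 ± 60.1 CPM in the low and 98.3 ± 49.3 CPM in the high clones (SD, n = 5). It did not pass in edgeR (log2 fold change -1.20, adjusted p = 0.0562), while DESeq2 and limma-voom called it (0.00438 and 0.0385).

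Among 8 tested collagen receptors 2 fell and 0 rose (beside 4.86% of all genes called), with a median of 0.16. In edgeR 4 had an unadjusted p under 0.05, beside 21.6% of all genes, and of these Itga11 and Adgrg1 were higher. DESeq2 called 3 of the 8, beside 11.4% of all genes, and limma-voom called 2. Itgb1, the beta chain shared by all collagen-binding integrins, fell from 1000 ± 140 CPM to 544 ± 154 CPM (log2 fold change -0.88, adjusted p = 0.0308). It lies on chromosome 8, and with the offset per chromosome the value was -0.31 (adjusted p = 0.339). Itga10, an alpha chain for collagen, fell from 6.00 ± 2.22 CPM to 1.91 ± 0.824 CPM (log2 fold change -1.65, adjusted p = 0.0322). Each of these calls was kept in 3 of 10 fits that left out 1 library. Itga11, the alpha chain that binds fibrillar collagen on fibroblasts, had 0.653 to 3.66 CPM in the low clones and 2.19, 66.2, 9.69, 5.29 and 0.366 CPM in the high clones, with its highest value in high 2, as for Col6a3. Its log2 fold change was 3.32 (adjusted p = 0.124 in edgeR, 0.0279 in DESeq2 and 0.475 in limma-voom).

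Of 13 tested partners of collagen in the basement membrane 1 fell and 0 rose, beside the 4.86% of all genes called. The median was -0.41, with 10 lower and 3 higher. At an unadjusted p under 0.05 in edgeR, 5 differed, beside 21.6% of all genes. Of these Lama5, Lamb3 and Lamc3 were lower, and Lama3 and Hspg2 were higher. The gene that fell was Lamb3, a laminin chain that anchors epithelium. Lamb3 fell from 85.9 ± 21.7 CPM to 34.1 ± 13.3 CPM (log2 fold change -1.33, SE 0.28, adjusted p = 0.0270) and was called in 7 of 10 fits that left out 1 library, and with the offset per chromosome it did not pass (adjusted p = 0.0595). The markers of simple epithelium summed to 462 to 697 CPM in the low and 123 to 512 CPM in the high clones, and of 5 tested 1 rose, Krt18 (log2 fold change 7.95, adjusted p = 0.00895, and 0.108 in limma-voom). The other 4 were lower and did not pass in edgeR, among them Krt19 (-1.39, adjusted p = 0.0509), Krt8 (-1.36, 0.0926) and Cdh1 (-2.73, 0.0926). Including these 3, DESeq2 called 4 of the 5, beside 11.4% of all genes, and edgeR called 4.86% of all genes. In limma-voom 1 passed, Krt19 (adjusted p = 0.0292), whose low and high clones did not overlap. The part of these markers in the Lamb3 values was not tested.

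Of 10 tested proteoglycans and glycoproteins that bind fibrils 0 passed in edgeR, 3 in DESeq2 and 1 in limma-voom, with a median of 0.13 and 3 at an unadjusted p under 0.05. Dcn, the fibril-binding decorin, was low in all libraries, at 2.00 ± 1.09 CPM in the low and 0.172 ± 0.255 CPM in the high clones (log2 fold change -3.59, adjusted p = 0.0534). Fmod, fibromodulin, lay the other way, at 0.303 CPM in the low and 4.59 CPM in the high clones (log2 fold change 3.91, adjusted p = 0.0800), and Tnxb was lower (-1.34, adjusted p = 0.0730). DESeq2 called these 3. Dcn passed the filter on low counts mainly through the low group and Fmod mainly through the high group. That these genes were tested at all thus already rests on those differences. Of 16 tested regulators of collagen genes 0 passed in edgeR, 0 in DESeq2 and 1 in limma-voom, with a median of 0.04 and 1 at an unadjusted p under 0.05. That gene was Ccn2, a target and mediator of TGF-beta signalling (log2 fold change -2.09, adjusted p = 0.208).

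**Figure D5:**
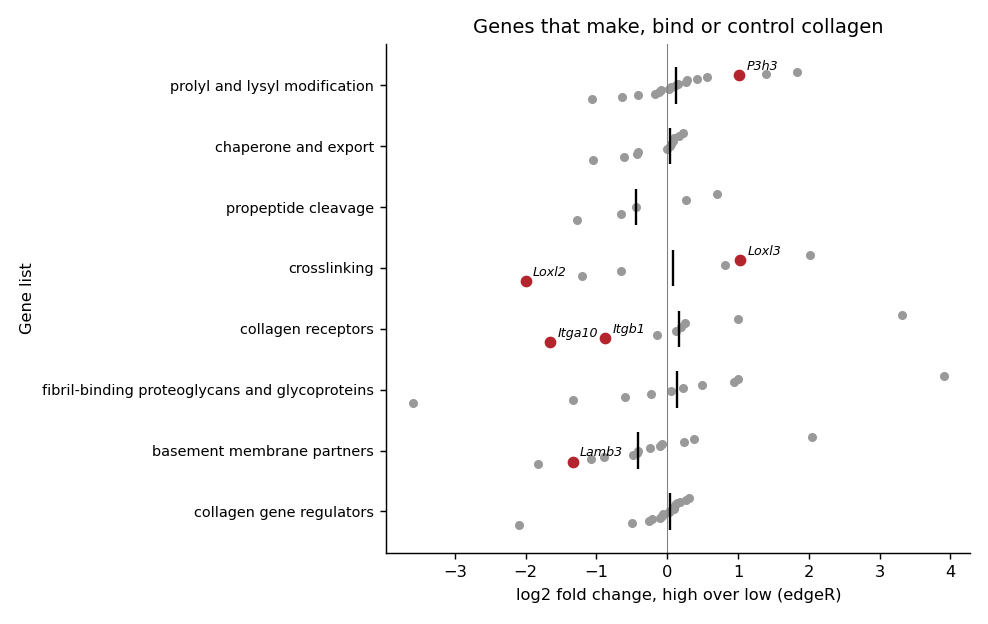
Log2 fold change, high over low, of each tested gene on the 8 lists of collagen partners, with a black line at each list's median and red points for genes with an adjusted p under 0.05 (edgeR). The 6 red points are P3h3, Loxl2, Loxl3, Itga10, Itgb1 and Lamb3.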

How the data were processed

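The authors deposited a table of raw read counts per Ensembl gene with 1 column per library, and these counts were used as deposited. Per the submitters' processing notes, the build was GRCm38 and the tools were R 4.2.1, DESeq2 1.36.0 and STAR 2.7.8a. What each tool did is not stated there. The kit is directional per the labels. For the read counter, its use of strand and its gene models, nothing is stated in the labels. Genes were named with GENCODE M21, which left 195 identifiers unnamed. The deposited normalized table and the sample sheet were not used as measurements.

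Counts were tested with edgeR 4.0.16 in R 4.3.3 over all 10 libraries with group as the only term: default filter by group, TMM scaling, robust quasi-likelihood F-tests, two-sided, adjusted by Benjamini-Hochberg over 12964 genes, threshold 0.05. The SE of a log2 fold change is its absolute size divided by the square root of its F statistic, not a value that edgeR reports. CPM are counts per 1e6 counts with the TMM factor applied. The log2 level used for the SD between clones is log2(CPM + 0.5). Chain ratios and levels per kilobase use the longest annotated transcript. A chromosome's shift is the median deviation of those of its genes whose mean log2 CPM exceeds 3. Promoters come from the RefSeq table, which has an entry for 33 of the 42 genes. The code was tested on simulated counts with known changes.

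The members, the lists and the tests were chosen with earlier results of these data known. Of the listed genes, 1 of the lists is not reported here and was left out of its list's counts. Members called, not overlapping, among the 10 highest per kilobase or highest in their class were to be given by library. Col3a1, Col6a3, Col12a1, Col18a1, Col11a1 and the neighbours of members were added after their values were seen. Alternatives were RLE and upper-quartile scaling, no filter, a minimum of 1 CPM in 5 libraries, a block for the replicate number, DESeq2 1.42.0, limma-voom (limma 3.58.1), leaving out each library, leaving out low 2 and low 3 together, an offset per library and chromosome, and a threshold of 0.1. No 2 libraries of a group were alike within sampling noise (chi-square per degree of freedom 73.4 to 245).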

Additional observations from a re-analysis of the deposited data

Results flagged for a closer look

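In 7 of 44 groups of 5 clones (22 genes in the low and the high group), 1 clone stood apart from the other 4: its gap to the nearest clone exceeded 0.71 of the group's whole range on the CPM scale. That is 15.9% of the groups. The cutoff gives about 1 in 20 only for independent values with a normal distribution. CPM values need not be normal and the genes share the same libraries, so the share cannot be read as an excess over chance. On the log2 scale, 1 of the 7, Col10a1 in low 5, was still apart.

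Col18a1 in high 5 had 425 CPM, where the other high clones had 11.6 to 36.4 CPM (gap 0.940 of the range). Col6a3 in high 2 had 105 CPM beside 0.998 to 24.9 CPM (0.771). Col6a3 in low 3 had 5.30 CPM beside 0.326 to 1.42 CPM (0.779). Low 3 was also apart for Col12a1, with 29.3 CPM beside 4.56 to 10.8 CPM (0.749). These genes encode chains with separate roles in the matrix, and the clones that stood apart lay in both groups.

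Col10a1 in low 5 had 0.653 CPM beside 0 to 0.0938 CPM in the other low clones (0.856), or 12 counts beside 0 to 2. Col4a2 in high 4 had 476 CPM beside 216 to 288 CPM (0.721). Col20a1 in high 1 had 2.03 CPM beside 0.433 to 0.870 CPM (0.726).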

How the results depend on the processing

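The count of genes changed over the whole table was 630, and 1475 with DESeq2, 164 with an offset per chromosome, 56 without low 2 and low 3, 1276 at an adjusted p under 0.1, and 232 to 821 when 1 library was left out. The count of collagen genes changed was 1, and 4 with DESeq2, 0 without a filter, 0 with limma-voom, 0 without low 2 and low 3, and 0 to 2 when 1 library was left out; the second gene was Col4a2, without high 4. With the replicate number as a block it was 0, with Col10a1 at a log2 fold change of 6.68 (adjusted p = 0.0666), Col1a2 at -2.73 and Col6a3 at 2.12. The numbers were not taken to pair the libraries: same-numbered libraries had correlations of their deviations of 0.455, -0.0528, 0.0326, 0.0739 and 0.160, and 2 of 5 correlated best with their own number. Of 417 log2 fold changes of members under the alternatives 390 kept their direction and their side of the threshold, 9 (all Col10a1) lost the call, 4 gained it and 14, in 5 members, changed sign. Leaving out 1 library gave -0.86 to 0.10 for Col3a1, -0.027 to 0.33 for Col4a5, -0.30 to 0.11 for Col5a1, -0.30 to 0.25 for Col11a2 and -0.29 to 2.03 for Col18a1. Without low 2 and low 3 the values were 0.35 for Col3a1, 0.16 for Col5a1 and 0.19 for Col11a2. The cause of these changes was not tested, and the fits that leave libraries out also hold fewer samples. The collagen share moved by less than 1 SD under its alternatives. Another choice of transcript length shifts a chain ratio by the same amount in every clone. It therefore cannot change the difference between the groups, and the ratios themselves hold for the longest transcript only. Depth limits the 20 untested members, of which 11 had at most 3 counts in all.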

Other observations

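High 2 held an extreme level of several genes that build or bind the matrix. It had the most Col6a2 (732 CPM), Col6a3 (105 CPM), Col3a1 (219 CPM), Lox (1058 CPM), Itga11 (66.2 CPM) and Fmod (14.6 CPM) of the 10 clones, and the least Col1a2 (1.98 CPM). High 4, the other clone with almost no Col1a2 (2.15 CPM), had 14.9 CPM of Col3a1, 1.47 CPM of Col6a3, 5.29 CPM of Itga11 and 1.31 CPM of Fmod. These genes were picked after their values were seen, and no test was made of the pattern.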
